A study of Mus musculus with 14 samples.

Results

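The genes described here are Dbp, Tef, Hlf, Nfil3, Nr1d1, Nr1d2, Per1, Per2, Per3 and Ciart, 10 of the 41934 genes in the expression tables. They were chosen by symbol as the outputs and feedback repressors of the circadian clock together with the PAR bZIP transcription factors, and each symbol had 1 row at each age. RNA was sequenced from whole brains of 14 male mouse fetuses, littermates from matings of Dio3+/- mice on a C57BL/6J background. Brains were taken at E13.5 and E18.5 (E for embryonic day). At E13.5 there were 4 Dio3+/+ and 2 Dio3-/- brains, and at E18.5 there were 3 Dio3+/+ and 5 Dio3-/- brains, with no other treatment. Dio3 encodes the type 3 deiodinase, which inactivates thyroid hormones, and the Dio3-/- fetuses carry mutations that abolish the enzyme in every tissue while the mRNA is still made, so that the mRNA level does not check the genotype labels. The time of day at which brains were collected is not stated in the labels. The tables give, for each age, the authors' mean normalized count over both genotypes, a log2 fold change of Dio3-/- over Dio3+/+ with its standard error (SE), and a p-value. No value for a single brain was analysed here, so levels of a genotype are computed from the mean and the fold change and carry no spread of their own. Because whole brains were used, fewer expressing cells and less RNA per cell cannot be told apart.

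In the clock of mammalian cells, CLOCK and BMAL1 (encoded by Arntl) bind E-box sequences and switch on the Period and Cryptochrome genes, whose proteins return to block CLOCK and BMAL1. E-boxes also drive the genes of the nuclear receptors REV-ERB alpha and REV-ERB beta, which repress Arntl, and the gene of the PAR bZIP activator DBP. DBP, TEF and HLF are basic leucine zipper factors with a domain rich in proline and acidic residues, and they bind a sequence called the D-box, on which NFIL3 acts as a repressor. Dbp is also known in the brain as a gene that responds to thyroid hormone, and the Nr1d1 gene lies against Thra, which encodes thyroid hormone receptor alpha, on the other strand.

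The promoter sequences were read to show which of these binding letters stand close to the start of each gene, since the clock and the PAR bZIP factors act through them. RefSeq promoters (build GRCm38.p6, 250 bases before to 50 bases after the start site) were matched for 9 of the 10 members, in 11 windows. Per2 had no match. The D-box was searched as TTATGTAA or TTACGTAA, the E-box as CACGTG, the cyclic AMP response element (CRE) as TGACGTCA and the nuclear receptor half-site as AGGTCA, each on both strands, and none of the matches overlapped another motif. Of 32851 promoters of 27025 genes, 1.06% held a D-box, 7.15% an E-box, 1.79% a CRE and 16.3% a half-site. The 4 windows below are shown for Per3, the member with D-boxes, for Ciart, the member with most matches, and for the pair that passed the test at E18.5, Hlf and Dbp. They are written 5′ to 3′ on the strand of the gene with the matches in capitals.
Per3, chr4:151044616-151044915, minus strand: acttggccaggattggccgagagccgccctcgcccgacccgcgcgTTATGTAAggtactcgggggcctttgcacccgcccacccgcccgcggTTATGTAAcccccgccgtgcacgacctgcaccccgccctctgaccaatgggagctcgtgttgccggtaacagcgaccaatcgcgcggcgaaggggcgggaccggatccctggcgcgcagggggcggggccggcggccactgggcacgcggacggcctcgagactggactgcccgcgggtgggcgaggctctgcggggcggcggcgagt
Ciart, chr3:95882179-95882478, minus strand: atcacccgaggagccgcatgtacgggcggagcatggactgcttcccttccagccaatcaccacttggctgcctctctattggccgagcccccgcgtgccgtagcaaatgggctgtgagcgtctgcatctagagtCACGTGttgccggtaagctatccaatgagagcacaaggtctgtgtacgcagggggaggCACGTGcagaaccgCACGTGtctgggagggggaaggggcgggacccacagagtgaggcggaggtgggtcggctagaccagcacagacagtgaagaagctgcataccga
Hlf, chr11:90390868-90391167, minus strand: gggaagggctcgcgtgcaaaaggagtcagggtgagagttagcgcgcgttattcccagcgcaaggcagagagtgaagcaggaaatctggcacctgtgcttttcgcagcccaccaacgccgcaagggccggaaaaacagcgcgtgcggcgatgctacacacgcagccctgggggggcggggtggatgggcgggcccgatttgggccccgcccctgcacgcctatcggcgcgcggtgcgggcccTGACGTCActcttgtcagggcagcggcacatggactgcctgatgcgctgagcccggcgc
Dbp, chr7:45704997-45705296, plus strand: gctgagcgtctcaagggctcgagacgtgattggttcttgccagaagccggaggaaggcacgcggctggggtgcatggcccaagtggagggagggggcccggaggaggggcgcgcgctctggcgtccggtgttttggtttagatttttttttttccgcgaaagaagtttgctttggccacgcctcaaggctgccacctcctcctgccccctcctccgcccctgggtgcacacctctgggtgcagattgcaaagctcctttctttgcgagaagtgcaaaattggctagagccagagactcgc

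Per3 held 2 D-boxes, which began 205 and 158 bases upstream of the start site, and no other member had a match to either form. Ciart held 3 E-boxes, which began 116, 58 and 44 bases upstream. An E-box also stood in both Tef windows, 127 and 138 bases upstream, and in 1 of the 2 Per1 windows, 166 bases upstream. Hlf held a CRE that began 9 bases upstream. Half-sites were found in Nfil3, Nr1d2 and Per1, at 12, 77 and 137 bases upstream. The Dbp and Nr1d1 windows held none of these letters, and no member held a direct repeat of the half-site with 4 bases between its copies, an arrangement that thyroid hormone receptors are known to bind and that 0.0152% of all promoters held. These are matches of letters in short windows, and they do not show binding.

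**Figure D1:**
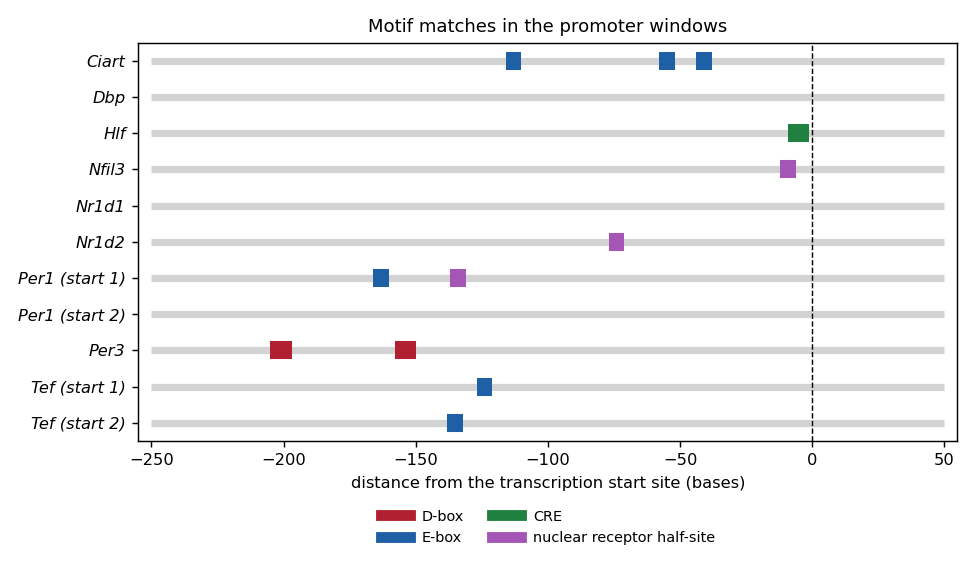
Motif matches in the promoter windows of the members with a RefSeq entry. The horizontal axis is the distance from the transcription start site in bases, each grey line is a window of 300 bases, and coloured blocks mark D-boxes, E-boxes, CREs and nuclear receptor half-sites. The 2 D-boxes stand in Per3 and the 3 E-boxes of 1 window in Ciart, while the Dbp and Nr1d1 windows are empty.

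The question of the study, whether a brain without the type 3 deiodinase changes its gene expression before birth, was asked of these genes at each age. At E18.5, Dbp and Hlf rose in Dio3-/- brains, Dbp by 74.3% and Hlf by 19.2%, and the other 8 members did not pass the test. At E13.5 no member passed. A gene was called when its p-value, adjusted by Benjamini-Hochberg over all genes kept by a filter on the mean, was under 0.05. By this rule 2 of 10 members were called at E18.5, both higher, where 1.37% of the 17607 genes tested were called and 0.960% were called higher. At E13.5, 0 of 10 were called, against 3.56% of 16436 genes tested. Before adjustment, 0 of 10 members had a p under 0.05 at E13.5, against 12% of all genes, and 3 of 10 had one at E18.5, against 8.04%. All 10 members passed the filter at both ages.

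**Figure D2:**
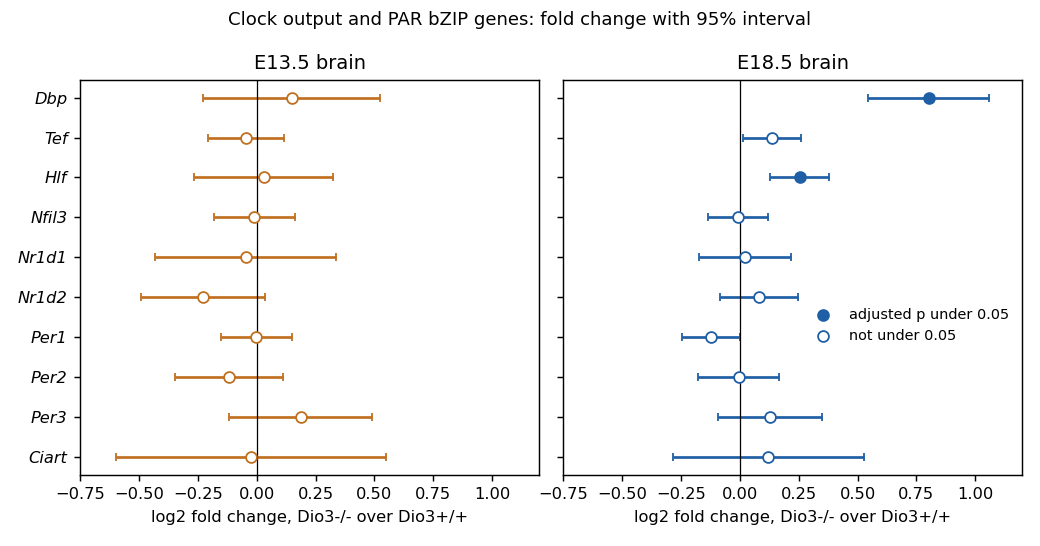
Log2 fold change of Dio3-/- over Dio3+/+ for each member at E13.5 (4 and 2 brains) and E18.5 (3 and 5 brains), with points for the authors' estimates, bars for the 95% interval computed from the SE, and filled points for an adjusted p under 0.05. Dbp at 0.80 and Hlf at 0.25, both at E18.5, are the filled points.

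The PAR bZIP activators had the 3 highest log2 fold changes of the members at E18.5. Dbp (ENSMUSG00000059824.12, chr7:45705088-45710203, plus strand, GRCm38) had a mean normalized count of 166 over the 8 brains, computed as 114 in Dio3+/+ and 198 in Dio3-/- brains. Its level in the Dio3-/- group was therefore the higher of the pair, with a log2 fold change of 0.80 (SE 0.13, 95% interval 0.54 to 1.06). The adjusted p was 6.57e-07, and Dbp stood at rank 26 of all genes by p. Hlf (ENSMUSG00000003949.16, chr11:90336536-90390895, minus strand, GRCm38), which codes for a PAR bZIP factor first known as a fusion partner in leukaemia, had a mean normalized count of 821, computed as 733 in Dio3+/+ and 874 in Dio3-/- brains. The Dio3-/- level was again the higher, by a smaller step of 0.25 on the log2 scale (SE 0.06, interval 0.13 to 0.38, adjusted p 0.0091, rank 148). Tef, the third of these activators, lay at 898 in Dio3+/+ and 987 in Dio3-/- brains. Its log2 fold change of 0.14 (SE 0.06, interval 0.01 to 0.26) had an unadjusted p of 0.0318 and an adjusted p of 0.516, so that it was not called. The intervals of Dbp and Hlf did not overlap, and that of Tef lay below that of Dbp.

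The calls for Dbp and Hlf rested on the normal distribution used for the test. Under a t distribution (6 degrees of freedom) the adjusted p was 0.517 for Dbp and 0.891 for Hlf, from unadjusted values of 0.000875 and 0.00749, and 1 gene in the whole table was then called. None of the E13.5 calls named below was kept in that setting.

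Dbp shares exon sequence with another gene. Of its 2993 exon bases, 539 (18%) are also exon of Sphk2, a sphingosine kinase gene on the opposite strand, and reads were counted without strand, in a mode that leaves out a read lying in both genes. Sphk2 had a log2 fold change of 0.23 at E18.5 (SE 0.08, unadjusted p 0.00383, adjusted p 0.165) and 0.02 at E13.5 (SE 0.09). The part of the shared bases in either value was not tested. Hlf shares no exon base with another gene, and Tef shares 193 of 7867 (2.45%) with Gm17597, an antisense gene with a mean normalized count of 2.34 at E18.5.

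At E13.5 none of the PAR bZIP activator genes was called, and their 95% intervals all included 0. Dbp was computed at 124 in Dio3+/+ and 137 in Dio3-/- brains, a log2 fold change of 0.15 (SE 0.19, adjusted p 0.881). Hlf lay at 403 and 411, with a log2 fold change of 0.03 (SE 0.15, adjusted p 0.975). For Tef the levels were 1033 and 1001, and the log2 fold change was -0.05 (SE 0.08, adjusted p 0.921). The 95% interval of Dbp ran from -0.23 to 0.52 at this age, so that its upper end lay below the E18.5 estimate of 0.80. That estimate has an error of its own, and Dbp did not pass the test of the difference between ages given below (adjusted p 0.142). Intervals of Hlf (-0.26 to 0.32) and Tef (-0.21 to 0.12) were wide enough to hold, or nearly hold, the E18.5 estimates.

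Nfil3, the bZIP repressor of D-box genes, was computed at 717 in Dio3+/+ and 713 in Dio3-/- brains at E18.5 and at 755 and 750 at E13.5. The genotypes thus had nearly equal levels at both ages. The log2 fold change was -0.01 at each age, with a 95% interval of -0.14 to 0.12 at E18.5 and -0.18 to 0.16 at E13.5. The E18.5 interval excludes the estimates of both Dbp and Hlf.

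Among the REV-ERB genes, which encode repressors of Arntl, neither was called. Nr1d1 (REV-ERB alpha) lay at 297 in Dio3+/+ and 301 in Dio3-/- brains at E18.5, with a log2 fold change of 0.02 (SE 0.10, adjusted p 0.998). At E13.5 the levels were 132 and 128, with a log2 fold change of -0.05 (SE 0.20, adjusted p 0.969). Nr1d1 shares 263 of 3077 exon bases (8.55%) with Thra on the opposite strand, and Thra had log2 fold changes of -0.11 (SE 0.06) at E13.5 and -0.03 (SE 0.04) at E18.5, with adjusted p of 0.467 and 0.990. Nr1d2 (REV-ERB beta) was computed at 317 in Dio3+/+ and 271 in Dio3-/- brains at E13.5. This was the largest step of any member at that age in absolute size, a log2 fold change of -0.23 (SE 0.13), with an unadjusted p of 0.0915 and an adjusted p of 0.548. At E18.5 Nr1d2 lay at 499 and 527, with a log2 fold change of 0.08 (SE 0.08, adjusted p 0.956).

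The Period genes encode the feedback repressors that bind the Cryptochromes, and none was called. Per1, a member that also responds quickly to cyclic AMP and glucocorticoids, lay at 1296 in Dio3+/+ and 1190 in Dio3-/- brains at E18.5. Its log2 fold change was -0.12 (SE 0.06, interval -0.25 to 0.00095), with an unadjusted p of 0.0518 and an adjusted p of 0.624. At E13.5 the Per1 levels were 1210 and 1209. Per2 lay at 446 and 444 at E18.5 and at 449 and 413 at E13.5, with log2 fold changes of -0.01 (SE 0.09) and -0.12 (SE 0.12). Per3, the member with D-boxes in its promoter window, lay at 202 in Dio3+/+ and 220 in Dio3-/- brains at E18.5 and at 234 and 266 at E13.5. Its log2 fold changes of 0.13 (SE 0.11, adjusted p 0.939) and 0.19 (SE 0.16, adjusted p 0.763) were both above 0, with 95% intervals that include 0.

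Ciart, also called Chrono, encodes another repressor of CLOCK and BMAL1 and had the lowest counts of the members. It lay at 55.1 in Dio3+/+ and 60.0 in Dio3-/- brains at E18.5 and at 59.3 and 58.3 at E13.5. Its log2 fold changes were 0.12 (SE 0.21) and -0.02 (SE 0.29). These SEs were the largest among the members at each age, and the intervals (-0.28 to 0.53 at E18.5, -0.60 to 0.55 at E13.5) leave room for changes as large as that of Hlf at E18.5.

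Across the members the median log2 fold change was 0.10 at E18.5, with 7 above 0 and 3 below, while the median over all genes tested was 0.0021. At E13.5 the median of the members was -0.02, with 3 above 0 and 7 below, and that of all genes was -0.01. The SEs of the members ran from 0.06 to 0.21 at E18.5 and from 0.08 to 0.29 at E13.5, against a median over all genes of 0.09 and 0.11.

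**Figure D3:**
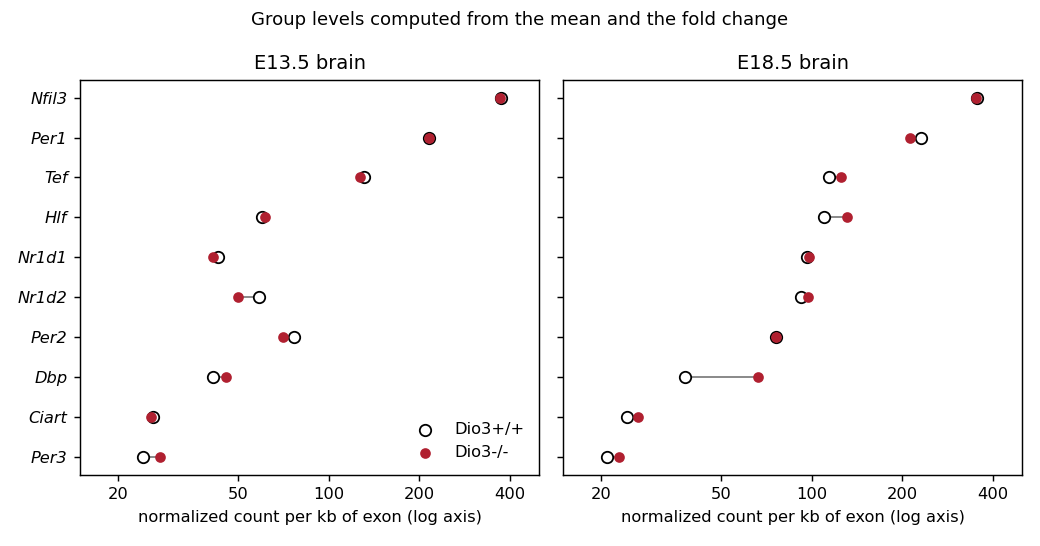
Group levels of the members in normalized counts per kb of exon, on a log axis, computed from the authors' mean and fold change for Dio3+/+ (open) and Dio3-/- (filled) brains at E13.5 and E18.5. The gap between the points is widest for Dbp at E18.5, from 38.0 to 66.2.

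Levels were compared between genes per kb of exon, since longer genes collect more reads. In Dio3+/+ brains at E18.5, Nfil3 was highest at 354 normalized counts per kb, followed by Per1 at 230. Tef (114) and Hlf (110) came next and differed from each other by less than the spread between brains described below, as did Nr1d1 (96.4) and Nr1d2 (92.2). Per2 lay at 76.2 normalized counts per kb, Dbp at 38.0, Ciart at 24.4 and Per3 at 21.0. In Dio3-/- brains at E18.5, Dbp reached 66.2 per kb and kept its place between Per2 at 75.9 and Ciart at 26.5. The per-kb order depends on the length used. Exon bases shared with another gene were kept in the length, 263 of 3077 for Nr1d1 and 539 of 2993 for Dbp. Reads lying in both genes were left out, so the levels per kb of Nr1d1 and Dbp may be understated. The comparison of Nr1d1 with Nr1d2 carries that limit. With the longest transcript in place of all exons, a choice made after the data were seen, the mean over both genotypes at E18.5 was 90.6 per kb for Dbp and 76.3 for Per2, and 35.5 for Per3 and 30.0 for Ciart. On that length Tef lay at 217 per kb and Hlf at 145, so the closeness of Tef and Hlf depended on the length used. Nr1d1 lay at 110 per kb and Nr1d2 at 111, and that pair stayed close.

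Some members had higher levels in the older Dio3+/+ brains. As a share of all summed normalized counts, Nr1d1 was 2.62 times as high at E18.5 as at E13.5 in Dio3+/+ brains, Hlf 2.12 times and Nr1d2 1.83 times. The other 7 members lay between 1.00 times for Per3 and 1.25 times for Per1, and Dbp was at 1.07 times. The ages were normalized separately, so these ratios were not tested, and the median gene had a ratio of 0.945 on the same scale. Scaled to that median, the ratios were 2.77 for Nr1d1, 2.24 for Hlf and 1.94 for Nr1d2.

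The genotype effect was then compared between ages, as the difference of the log2 fold changes over their joint error. None of the 10 members passed, where 1.95% of 17794 genes did. Dbp had the largest difference, 0.65 higher at E18.5 (SE 0.23, interval 0.20 to 1.11), with an unadjusted p of 0.0049 and an adjusted p of 0.142. Nr1d2 followed with 0.31 (SE 0.16, adjusted p 0.507), then Hlf with 0.22 (SE 0.16, adjusted p 0.749) and Tef with 0.18 (SE 0.10, adjusted p 0.587). The call of Dbp and Hlf at E18.5 but not at E13.5 is thus not shown to be a difference between the ages. Nfil3 had a difference of 0.0017 (SE 0.11).

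The SEs also hold the spread between brains. Taken with the mean and the group sizes, they imply a coefficient of variation (CV) of 9.01% for Dbp and 4.93% for Hlf at E18.5, where the medians of genes of like mean were 8.94% and 4.96%. These 2 genes therefore varied between brains about as much as other genes of their level. At E18.5 the CV of 7 of 10 members was above the median of genes of like mean, with Nr1d2 (6.73% against 5.75%), Per1 (5.29% against 4.47%) and Per2 (6.77% against 6.04%) at percentiles 88.4, 87.7 and 81.1 of those genes. At E13.5 it was above for 3 of 10, and Hlf stood highest, at 10.95% against 8.19% and percentile 91.0. The authors' fit draws the spread of each gene towards that of genes of like mean, so these values understate how far genes differ.

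**Figure D4:**
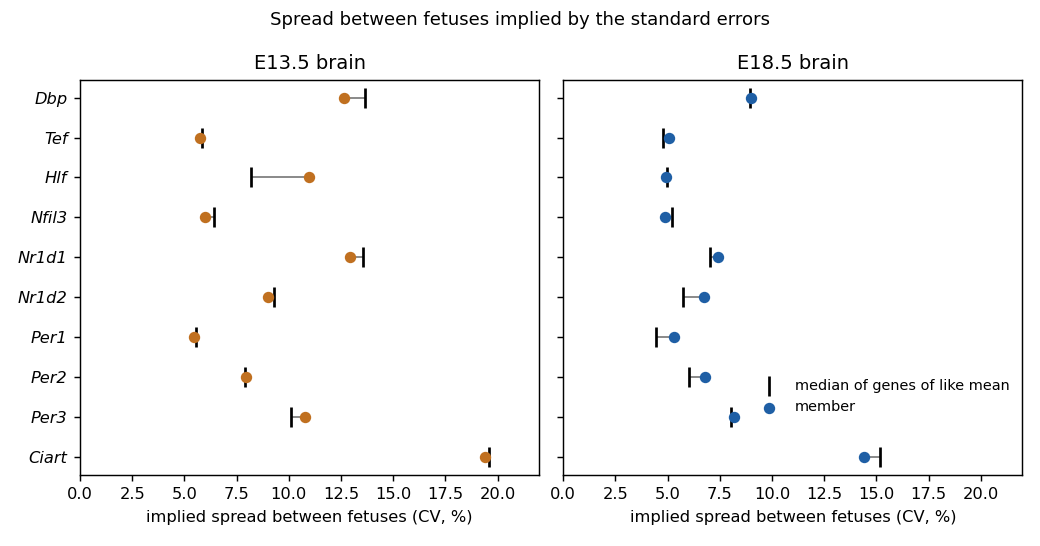
Spread between brains of the same genotype implied by the SE, as a CV in percent, for each member (points) and as the median of genes within 1.5 times of its mean (ticks), at E13.5 and E18.5. Hlf at E13.5 and Nr1d2 and Per1 at E18.5 lie to the right of their ticks, and Dbp lies at its tick at E18.5.

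The rest of the clock was read from 4 lists with 26 genes. At E18.5, 2 of the 25 that passed the filter were called (8%, against 1.37% of all genes), both higher. Npas2, a partner of BMAL1 that can stand in for CLOCK, rose with a log2 fold change of 0.49 (SE 0.12, adjusted p 0.010), and Bhlhe40, an E-box repressor, rose with 0.38 (SE 0.09, adjusted p 0.00185). At E13.5, 1 of 23 was called (4.35%), a share near the 3.56% of all genes. It was Rora, which encodes an activator of Arntl that competes with the REV-ERBs, and it fell in Dio3-/- brains with a log2 fold change of -0.38 (SE 0.11, adjusted p 0.0255). With the test statistic divided by its central spread over all genes, the adjusted p of Rora was 0.101.

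The core of the loop had small fold changes at E18.5. Arntl had a log2 fold change of 0.10 (SE 0.06), Clock of -0.03 (SE 0.05), Cry1 of -0.05 (SE 0.06) and Cry2 of -0.03 (SE 0.06), and none was called. At E13.5 Arntl had -0.27 (SE 0.15, unadjusted p 0.0722, adjusted p 0.495), Clock 0.04 (SE 0.08), Cry1 -0.02 (SE 0.09) and Cry2 0.06 (SE 0.08), again with no call. Of the 6 clock kinase and ubiquitin ligase genes none was called at either age, and the largest test statistics belonged to Btrc at E13.5 (0.10, SE 0.06) and Csnk1d at E18.5 (-0.05, SE 0.04). Of the 9 other clock-controlled genes, 7 passed the filter at E13.5 and 9 at E18.5, and none was called. Wee1, a kinase that delays entry into mitosis, was nearest, with a log2 fold change of -0.34 at E13.5 (SE 0.11, adjusted p 0.0522), and at E18.5 it was Avp, the vasopressin gene, at 0.31 (SE 0.18, adjusted p 0.732).

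Genes on which PAR bZIP factors are known to act in liver and brain were not called. Pdxk, which makes the active form of vitamin B6, had log2 fold changes of 0.07 (SE 0.10) at E13.5 and -0.07 (SE 0.07) at E18.5. Por, the electron donor of cytochrome P450 enzymes, had -0.05 (SE 0.06) and 0.05 (SE 0.05), and Alas1, of haem synthesis, had -0.00084 (SE 0.07) and 0.03 (SE 0.06). The remaining gene of that list, Nr1i3, did not pass the filter at either age.

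Lists of other bZIP and fast-response genes were read in the same way. Of the C/EBP relatives, which share DNA sites with the PAR bZIP factors, Cebpg fell at E13.5 with a log2 fold change of -0.20 (SE 0.06, adjusted p 0.0433). That call was lost without the filter (adjusted p 0.0802) and after centring on the median gene (0.0674). At E18.5 none of the 4 relatives was called, and Cebpd lay at 0.13 (SE 0.16). Of 11 glucocorticoid-induced genes, Sgk1, which encodes a kinase, rose at E18.5 with 0.22 (SE 0.06, adjusted p 0.0229), and none of the 10 that passed the filter at E13.5 was called. No immediate early gene was called at either age; the nearest were Dusp1 at E13.5 (-0.22, SE 0.08, adjusted p 0.176) and Nr4a1 at E18.5 (0.32, SE 0.13, adjusted p 0.304). Over all 8 lists, 3 of 52 genes (5.77%) were called at E18.5, against 1.37% of all genes, and 2 of 47 (4.26%) at E13.5, against 3.56%. Median log2 fold changes were 0.04 and -0.03.

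**Figure D5:**
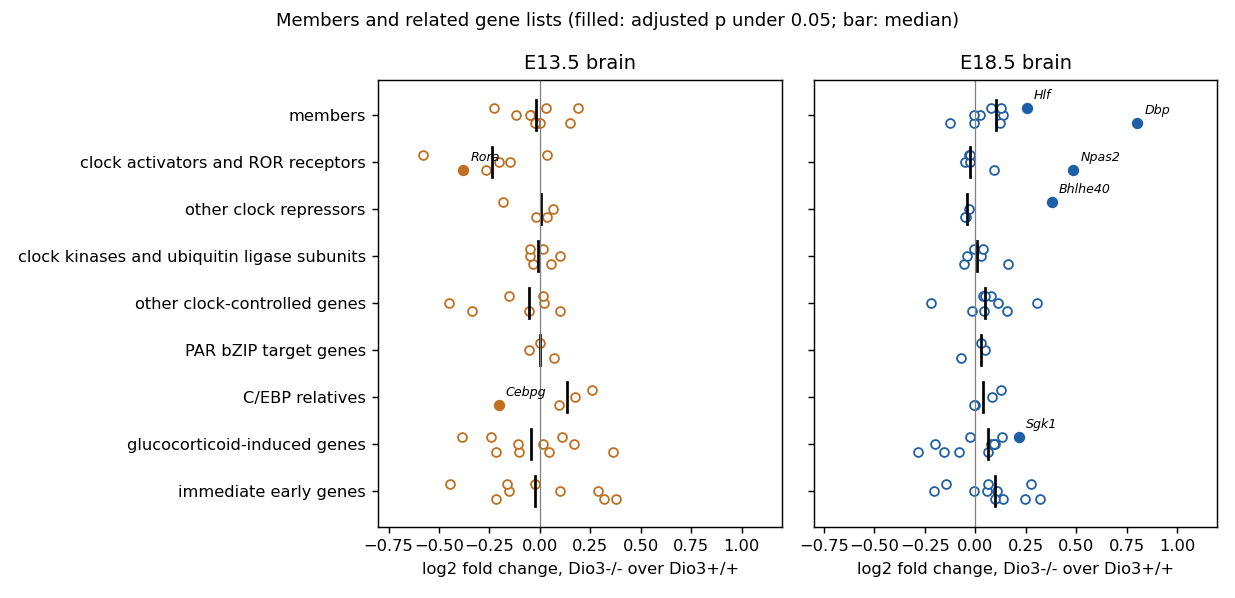
Log2 fold changes of Dio3-/- over Dio3+/+ at E13.5 and E18.5 for the members and 8 related gene lists, with each point a gene that passed the filter, filled where its adjusted p was under 0.05, and a bar at the median of each list. At E18.5 Dbp (0.80), Npas2 (0.49), Bhlhe40 (0.38), Hlf (0.25) and Sgk1 (0.22) are filled, and at E13.5 Rora (-0.38) and Cebpg (-0.20).

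Markers of brain regions and of other tissues differed between the genotypes at E13.5. Of 9 telencephalon markers, 8 were lower in Dio3-/- brains (median log2 fold change -1.70, range -2.40 to -0.20). All 15 Hox genes, which mark hindbrain and spinal cord, lay above 0 (median 2.05, 1.13 to 4.50) and 5 were called. All 9 fibroblast and cartilage markers lay above 0 as well (median 0.70, range 0.50 to 2.97) and 4 were called. Of 6 progenitor markers 2 were lower, of 5 erythroid markers 3 were lower (median -0.51), and of the 4 astrocyte markers that passed the filter 1 was higher. The 6 neuron markers had a median of 0.03 and none was called, nor was any of 5 endothelium or 5 microglia markers. Their part in the E13.5 values of the members and of the related lists, with Rora, Cebpg, Wee1 and Arntl, was not tested. At E18.5 none of the 9 telencephalon markers and none of the 12 Hox genes that passed the filter was called, and the 6 neuron markers had a median of -0.02 with none called. Of the fibroblast and cartilage markers 3 of 9 were higher (median 0.03), of the astrocyte markers 1 of 6, Gfap with 0.45 (SE 0.09), was higher, and of the erythroid markers 2 of 5 were lower (median -0.37). Of the progenitor markers 1 of 6 was lower, and no endothelium or microglia marker was called. Every marker had reads at both ages. Their part in the E18.5 values of Dbp and Hlf was not tested.

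As a check on hormone response, Klf9, a transcription factor gene induced by thyroid hormone, had a log2 fold change of 0.76 (SE 0.19, adjusted p 0.00319) at E13.5 and of 1.52 (SE 0.07, adjusted p 2.57e-111) at E18.5. Hr, a corepressor of the thyroid hormone receptor, had 0.15 (SE 0.22, adjusted p 0.896) and 0.97 (SE 0.09, adjusted p 6.57e-21). At E18.5 the step of Dbp was thus smaller than that of Klf9, with intervals that did not overlap, and the interval of Hr (0.79 to 1.16) overlapped that of Dbp. The mutated Dio3 mRNA itself had a log2 fold change of -0.89 (SE 0.23, adjusted p 0.00584) at E13.5 and of 1.10 (SE 0.15, adjusted p 8.45e-10) at E18.5. The part of the E13.5 marker differences in the values of Klf9, Hr and Dio3 was not tested.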

How the data were processed

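RNA was depleted of ribosomal RNA and sequenced as single-end 75-base reads in 2 batches. Per the study's methods, the authors trimmed reads with Cutadapt 3.1, aligned them with STAR 2.5.3a to GRCm38, counted them per GENCODE VM22 gene with HTSeq without strand, adjusted counts for batch with ComBat-seq, and compared genotypes within each age with DESeq2 1.30.1. The values deposited by the authors are a mean normalized count for each gene (a signal averaged over both genotypes), a log2 fold change with its standard error, a Wald score and a p-value. These columns are the authors' own comparison, and the fold changes, errors and unadjusted p-values printed here come from it, because no counts of single libraries were analysed here. The authors' adjusted p-value was not used. Depths of single libraries are not known from these tables, and the means summed to 2.86e+07 at E13.5 and 2.46e+07 at E18.5.

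Computed here, in Python 3.11.15 with numpy 2.4.6, pandas 2.3.3 and scipy 1.17.1 and in R 4.3.3, were an independent filter (means of at least 21.7 at E13.5 and 13.8 at E18.5), Benjamini-Hochberg adjustment over all genes kept, with a two-sided adjusted p under 0.05 as the threshold, 95% intervals from the standard errors, a two-sided normal test of the difference between ages over genes with a mean of at least 10 at both, group levels and CVs implied by mean, fold change, standard error and group size (size factors taken as 1), and levels per kb of GENCODE vM21 exons. These scripts were tested on simulated data. The errors do not carry the uncertainty of the ComBat-seq step. Batches are not marked in the tables, so no value within a batch could be computed. In the study's own clustering a Dio3+/+ library of E18.5 fell among the Dio3-/- libraries, and no value without it could be computed here. The methods describe separate fetuses, so errors cover the spread between fetuses. The members and lists were chosen with earlier results of these data known. Named genes were all members, each pathway list's called genes or otherwise its largest statistic at each age, overlapping genes, Thra, Klf9 and Hr; the core genes Arntl, Clock, Cry1 and Cry2, the PAR bZIP targets, Gfap and Dio3 were added after their values were seen. A further telencephalon marker is not reported here and is left out of the counts of that list.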

Additional observations from a re-analysis of the deposited data

Results flagged for a closer look

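Of the genes tested between the ages and named here, 3 had a genotype effect that differed between E13.5 and E18.5 by the test of the difference itself, and none of them is among the 10 clock output and PAR bZIP genes. Klf9 had a log2 fold change 0.76 higher at E18.5 than at E13.5 (SE 0.20, adjusted p 0.0101). Hr had one 0.82 higher (SE 0.24, adjusted p 0.0388). Dio3, whose mRNA carries the inactivating mutations in Dio3-/- brains, had one 1.99 higher (SE 0.28, adjusted p 9.83e-10), with a lower level than in Dio3+/+ brains at E13.5 and the reverse at E18.5. The E13.5 value of Dio3 rests on 2 Dio3-/- brains and a mean normalized count of 99.0. By quantitative PCR, with samples from females added, the paper reported Dio3, Dbp and Klf9 among genes higher in Dio3-/- brains at E13.5. At E13.5 the genotypes also differed in telencephalon markers (median log2 fold change -1.70) and in Hox genes (median 2.05). The part of those marker differences in the values of Klf9, Hr and Dio3 was not tested. For these 3 genes the difference between ages was not computed again under the other settings described below.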

How the results depend on the processing

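Members were called in the same numbers without the filter, with a minimum mean of 10, with the statistic divided by its central spread, after centring on the median gene and at an unadjusted p under 0.01, which left Dbp and Hlf as the called members at E18.5 and none at E13.5. With a t distribution in place of the normal, 0 members were called at E18.5, although 2 had an unadjusted p under 0.05 (Dbp and Hlf), and over all genes the calls went from 585 to 0 at E13.5 (4 degrees of freedom) and from 242 to 1 at E18.5; fewer degrees of freedom are the only change made in that setting. Calls over all genes were also 320 at E13.5 with the divided statistic, and 959 at E13.5 and 602 at E18.5 at an unadjusted p under 0.01. Of the other called genes named here, Rora, Cebpg, Npas2, Bhlhe40, Sgk1, Hr, Dio3 and Gfap were not called with the t distribution at either age, nor was Klf9 at E13.5. Rora and Cebpg also lost their calls with the divided statistic, and Cebpg without the filter and after centring. After centring, fold changes next to 0 changed sign: Nfil3 to 0.0007 and Per1 to 0.00986 at E13.5, and the difference between ages of Nfil3 to -0.00737. No paired analysis was possible because the tables hold no value for a single library, and for the same reason leaving out each replicate, edgeR and DESeq2 on counts were not run. With 2 Dio3-/- brains at E13.5, the 95% intervals of Dbp, Hlf, Nr1d1, Per3 and Ciart at that age include an increase as large as that of Hlf at E18.5.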
